A study of Homo sapiens with 1 sample.

Results

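The genes described are the collagen chains, that is, every gene in the count table whose symbol is COL, a number, A and a number. The rule found 44 chains among 33538 genes, and each had at least 1 UMI (unique molecular identifier, the tag that marks 1 captured RNA molecule) in the cells kept. The data are single-cell RNA-seq of 1 library, group hHAR123, which carries the human form of the enhancer HAR123 (genotype WT) and was made from H9, a long-used human embryonic stem cell line. Per the labels the cells spent 2 days with Rock inhibitor (5 μM), Dorsomorphin (1 μM) and SB431542 (10 μM), then 5 days as rotating embryoid bodies with the last pair of drugs, then 7 days on Matrigel, a coating that is itself basement membrane matrix, on the way to neural progenitor cells. Clones of the genotype were mixed and the cells were taken ahead of rosette selection, so no clone can be told apart here. Of 14726 barcodes, 13925 had 2000 to 10000 detected genes and a mitochondrial share of UMIs under 0.1.

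The kept cells were divided by ANXA1, TFPI2 and CTGF, which encode a phospholipid-binding annexin, a secreted protease inhibitor and a matricellular protein. The 1584 cells (11.4%) in which these genes together gave 5 or more of every 10000 UMIs are called marker-high cells, and the remaining 12341 are called other cells. No collagen gene entered this division. The score does not split the cells into separate groups: 328 cells lay between 2.5 and 5 and 322 between 5 and 10, while 7903 had a score of 0. Marker-high cells were deeper, with a median of 47217 UMIs against 16910, and their mean depth was 2.51 times that of the other cells. Their median mitochondrial share was close to that of the other cells (5.12% and 5.16%). Levels are therefore given as CPM, a gene's UMIs per 1000000 UMIs of all genes, pooled over the cells of a group, with exact 95% Poisson intervals. Ratios are the level in marker-high over other cells with exact conditional 95% intervals. Because there was 1 library, no test was possible, and the intervals cover counting error only, not the spread between cultures.

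The cell groups were checked against marker lists. Of all 18696 genes that reached the minimum for a ratio, 7.45% were at least 2-fold higher in marker-high cells. A further 24.0% were at or under 0.5-fold, so lower genes were common in any list. The counts per list are a description beside these shares. All 7 contractile genes tested (TAGLN, ACTA2, MYL9, TPM1, TPM2, CNN1, CALD1) were at least 2-fold higher in marker-high cells, at 15350 CPM summed against 2320 CPM. Of 7 neural progenitor genes 4 were at least 2-fold lower, among them SOX2 at 117 CPM against 412 CPM, and only NES, an intermediate filament gene, was at least 2-fold higher. The labels name human embryonic stem cells, and the pluripotency gene POU5F1 was at 0.104 CPM in marker-high and 0.0925 CPM in other cells. Its UMIs (8 and 22) were below the minimum for a ratio. NANOG, the other pluripotency gene listed, was at 0.104 against 0.387 CPM (0.270, 0.113 to 0.554, on 8 and 92 UMIs). Mesenchyme and neural crest genes, which mark other collagen-producing cells, summed to 39.4 CPM against 11.6 CPM. FOXC2 alone was at 20.4 CPM against 0.349 CPM. Of the 6 tested, TWIST1, FOXC2 and LUM were at least 2-fold higher, and SOX10 was at or under 0.5-fold. PRRX1 (1.065) and PDGFRA (1.03) were close in both groups. TWIST1 and FOXC2 reached the minimum for a ratio only through the marker-high cells. SOX10, like MYH11, VWF and ELAVL4 below, reached it only through the other cells, so these calls are a description. DCN, below the minimum for a ratio, had 0 UMIs in marker-high cells, which allows up to 0.0391 CPM. Smooth muscle genes summed to 8.22 against 5.70 CPM, with SMTN at a ratio of 2.01, MYH11 at 0.458 and DES near 0 in both groups (0.0652 and 0.0757 CPM). Cartilage genes summed to 36.7 against 77.7 CPM, with MATN3 at 2.10, SOX9 at 0.385, and ACAN (0.417 and 0.265 CPM) and COMP (0.0521 and 0.105 CPM) below the minimum for a ratio. Endothelial genes summed to 19.8 against 17.8 CPM, with CDH5 at 4.43, KDR at 1.10, PECAM1 at 0.892 and VWF at 0.189. Of the epithelial genes, which summed to 677 against 165 CPM, the keratins KRT8 (3.63) and KRT18 (4.74) were higher, EPCAM was at 3.90 against 4.75 CPM (0.821, 0.720 to 0.933), and CDH1 had 15 and 44 UMIs. Neuron genes summed to 90.1 against 125 CPM, with 2 of 5 at or under 0.5-fold and 0 at least 2-fold higher. The lower genes were DCX (0.427) and ELAVL4 (0.0399, on 8 UMIs in marker-high cells). STMN2 (1.14), INA (1.27) and TUBB3 (0.959) were close in both groups. No cell type name is given to the marker-high cells, and the part of any admixed cell type in the results was not tested.

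Collagens are matrix proteins in which chains wind around each other into a helix. Fibrillar collagens assemble into the banded fibrils of skin, bone, tendon and cartilage. Type IV collagen forms the meshwork of basement membranes, on which the neural epithelium rests, and the short-chain types VIII and X form other networks. The remaining types sit on fibrils, form beaded filaments or anchoring fibrils, or cross the plasma membrane. In the embryonic brain the basement membrane lies at the pial surface, where radial glia attach. Chains are made in the endoplasmic reticulum, where prolines and lysines are hydroxylated, and are trimmed and cross-linked outside the cell.

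Collagen RNA was 3123 CPM (3110 to 3135) in marker-high cells and 1581 CPM (1576 to 1586) in other cells, a ratio of 1.98 (1.97 to 1.99). The 11 fibrillar chains summed to 1408 CPM against 533 CPM, a ratio of 2.64 (2.62 to 2.67). The 9 network chains summed to 907 CPM against 743 CPM, a ratio of 1.22 (1.21 to 1.23). The 24 other chains summed to 808 CPM against 305 CPM, a ratio of 2.65 (2.62 to 2.68). Each of these sums leaned on 1 chain. Without COL11A1 the fibrillar ratio was 1.58, without COL8A1 the network ratio was 0.785, and without COL25A1 the ratio of the other chains was 1.18. Fibrillar sums also held COL2A1, which went the opposite way, and without both COL11A1 and COL2A1 their ratio was 3.20.

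Single chains lay far apart around these sums. Of the 44 chains, 39 had at least 100 UMIs in the kept cells and were compared. Of these 39, 12 (30.8%) were at least 2-fold higher in marker-high cells, 11 (28.2%) were at or under 0.5-fold, and 16 lay between. The same cut-offs were passed by 7.45% of all 18696 genes with 100 or more UMIs in the higher direction and by 24.0% in the lower direction. The share of lower chains was thus near that of all genes. Of the higher chains COL5A3 reached 100 UMIs only through the marker-high cells, and of the lower chains COL4A3, COL6A6, COL10A1, COL15A1, COL19A1 and COL28A1 only through the other cells, which hold more UMIs in all, so these counts are a description. The median ratio of the 39 chains was 1.195, against 0.771 for all genes (0.26 and -0.38 on the log2 scale), and 26 chains were above the median gene. Taken relative to the median gene, 16 chains were at least 2-fold higher and 7 at or under 0.5-fold. The 5 chains under 100 UMIs were COL16A1 (82 UMIs), COL6A5 (59), COL20A1 (26), COL8A2 (22) and COL6A3 (22), and their ratios were not read. Ratios in UMIs per cell are 2.51 times those in CPM. On that scale 26 chains were at least 2-fold higher and 2 were at or under 0.5-fold. The ratios of all genes shift by the same factor. Shares of all genes were not computed on that scale or relative to the median gene, so these counts are no result about collagens. UMIs were counted near the 3′ end and not divided by length, and intronic reads may be included, so no order of levels between genes was drawn.

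**Figure D1:**
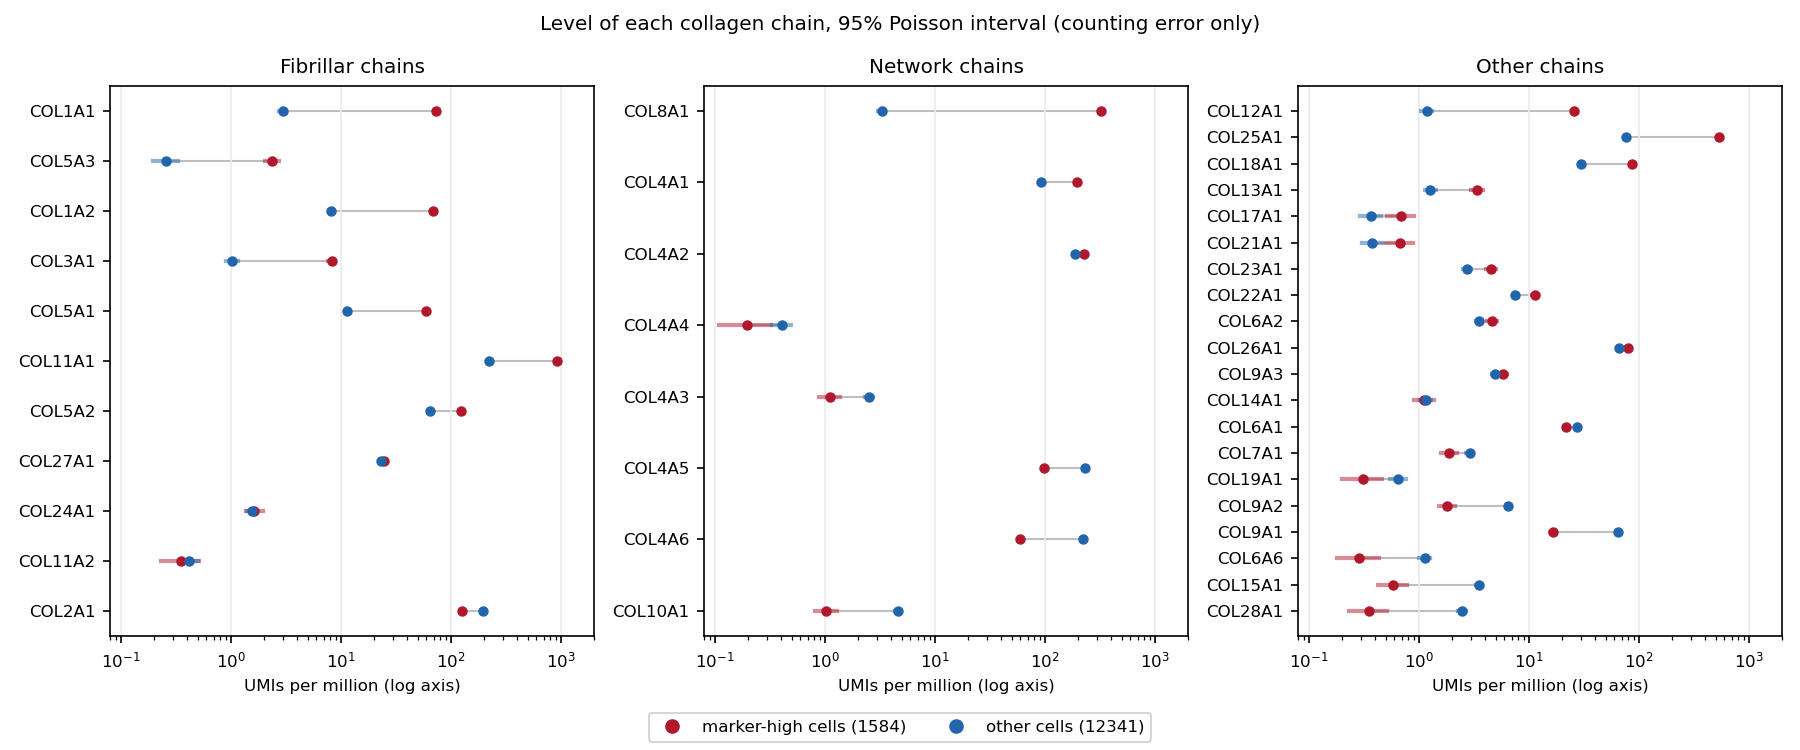
Level of each of the 39 chains compared (CPM, log axis) in 1584 marker-high cells (red) and 12341 other cells (blue), with exact 95% Poisson intervals, in 3 panels by class and sorted by ratio. COL8A1 has the widest gap, at 327 against 3.28 CPM, and COL28A1 sits at the bottom of the other chains with 0.352 against 2.48 CPM.

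Among fibrillar chains none was at or under 0.5-fold, and 6 of 11 were at least 2-fold higher. COL1A1 and COL1A2 encode the chains of type I collagen, the main fibril of skin and bone. COL1A1 was at 74.0 CPM (72.1 to 75.9) in marker-high cells and 2.95 CPM (2.74 to 3.18) in other cells, a ratio of 25.04 (23.1 to 27.1). COL1A2 was at 68.7 CPM against 8.19 CPM, a ratio of 8.39 (7.96 to 8.84). Both type I chains were thus higher in marker-high cells. Marker-high cells were uneven for COL1A1: its UMIs were found in 43.9% of them (41.4 to 46.4%), the median cell had 0, and the tenth of cells with most COL1A1 held 69.8% of its UMIs.

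COL3A1, the chain of type III collagen, which accompanies type I in soft tissue, was at 8.26 CPM against 1.03 CPM, a ratio of 8.06 (6.94 to 9.38). Its 634 UMIs in marker-high cells came from 144 cells (9.09%). COL5A1 and COL5A3 encode chains of type V collagen, which nucleates fibrils. COL5A1 was at 60.0 CPM against 11.4 CPM, a ratio of 5.25 (5.00 to 5.50). COL5A3 was at 2.36 CPM against 0.256 CPM, a ratio of 9.20 (6.85 to 12.5) that rests on 61 UMIs in other cells. This ratio was 18.7 when cells were thinned to 5000 UMIs each. Ratios in thinned cells, here and below, divide the cells again by the score of their thinned counts (1580 marker-high cells). COL5A2, the remaining type V chain, fell just short of the 2-fold cut-off at 124 CPM against 64.6 CPM (1.92, 1.87 to 1.97).

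COL11A1 and COL2A1 encode chains of the cartilage collagens and are also made in neural epithelium. COL11A1 held 57.0% of its UMIs in marker-high cells, although these cells gave 24.4% of all UMIs. It was at 919 CPM (912 to 926) against 224 CPM (222 to 226), a ratio of 4.11 (4.06 to 4.15). The difference was broad over cells: the middle marker-high cell had 808 CPM and the lower quartile 475 CPM, whereas the upper quartile of other cells was 253 CPM. COL2A1 went the other way, at 125 CPM against 195 CPM (0.642, 0.628 to 0.657), and was present in 90.4% of marker-high and 92.8% of other cells, or 43.6% and 61.0% at equal depth. COL11A2, which pairs with COL11A1 in type XI collagen, had 126 UMIs in all, at 0.352 CPM against 0.416 CPM. COL27A1 (24.9 and 23.2 CPM) and COL24A1 (1.64 and 1.57 CPM) had ratios of 1.07 and 1.04, the latter 0.605 in thinned cells.

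COL8A1 encodes a chain of type VIII collagen, the short-chain network of the eye and of vessel walls. It was at 327 CPM (323 to 331) in marker-high cells and 3.28 CPM (3.06 to 3.52) in other cells, a ratio of 99.5 (92.6 to 107). The marker-high cells held 97.0% of its UMIs. The ratio moved with the cut, to 38.9 with the cut at 10 and to 177 without the cells between 2.5 and 10. With every cell thinned to 5000 UMIs, 49.5% of marker-high cells (47.0 to 52.0%) and 0.934% of other cells (0.771 to 1.12%) had a COL8A1 UMI, and without thinning the shares were 74.9% and 3.13%. The COL8A1 UMIs of other cells were not spread evenly: 314 of the 781 were in the 328 cells with a score of 2.5 to 5, where the level was 30.1 CPM against 1.38 CPM at a score of 0, and the most in a single other cell was 50. The natriuretic peptide gene NPPB, with a ratio of 98.7, was likewise at 37.2 CPM and 2.12 CPM in these bands. The part of free RNA in the COL8A1 UMIs of other cells was not tested. COL8A2, the partner of COL8A1 in other tissues, had 22 UMIs in the kept cells. COL10A1, the type X chain of growth-plate cartilage, was at 1.03 CPM against 4.61 CPM, a ratio of 0.224 (0.176 to 0.281).

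The 6 type IV chains did not differ in 1 direction. They summed to 579 CPM in marker-high cells and 735 CPM in other cells (0.788, 0.780 to 0.797). COL4A1 and COL4A2 form the basement membrane trimer found in nearly all tissues. COL4A1 was at 194 CPM (191 to 197) against 92.8 CPM (91.6 to 94.1), just inside the 2-fold cut-off at 2.09 (2.05 to 2.14), and under it in thinned cells (1.82), with the score cut at 3 (1.98) and as the mean of per-cell CPM (1.795). COL4A2 was at 226 CPM (223 to 229) against 187 CPM (185 to 188), a ratio of 1.21 (1.19 to 1.23). COL4A5 and COL4A6, chains of the more restricted trimers, were lower in marker-high cells. COL4A5 was at 97.9 CPM (95.7 to 100) against 232 CPM (230 to 234), a ratio of 0.422 (0.412 to 0.432). COL4A6 was at 59.8 CPM (58.0 to 61.5) against 220 CPM (219 to 222), a ratio of 0.271 (0.263 to 0.279).

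COL4A3 and COL4A4, known from kidney and lung basement membrane, had few UMIs. COL4A3 was at 1.11 CPM against 2.51 CPM (0.442, 0.348 to 0.555), and COL4A4, with 112 UMIs, at 0.196 CPM against 0.408 CPM (0.480, 0.259 to 0.831), or 0.236 in thinned cells, where 1 UMI was left in marker-high cells. Of the chains at or under 0.5-fold in CPM, COL4A5 (1.06), COL4A3 (1.11), COL4A4 (1.205) and the fibril-associated chain COL19A1 (1.21) had ratios above 1 in UMIs per cell, and so their direction depends on the scale, as does that of COL2A1 (1.61). COL4A6 stayed below 1 on that scale, at 0.681. COL4A5 gave 3.14% of the collagen UMIs of marker-high cells and 14.7% of those of other cells, and COL4A6 gave 1.91% and 13.9%. COL8A1 gave 10.5% and 0.208%.

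**Figure D2:**
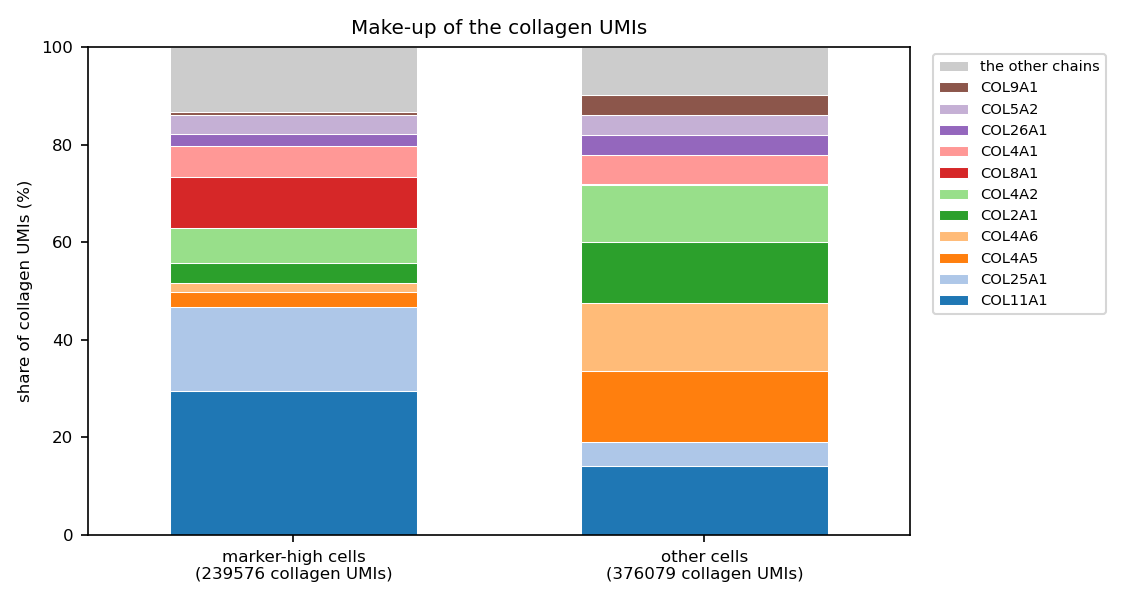
Share of the collagen UMIs (percent) given by each of the 11 chains that reach 4% in either group, stacked for marker-high and other cells, with the remaining 33 chains in grey. COL11A1 is the lowest block in both columns, at 29.4% and 14.2%, the orange blocks of COL4A5 and COL4A6 are thin in marker-high cells and thick in other cells, and COL8A1 is visible only in marker-high cells.

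The type IV genes lie head to head in pairs, each pair transcribed outward from a common upstream stretch. COL4A1 and COL4A2 lie on chromosome 13, COL4A3 and COL4A4 on chromosome 2, and COL4A5 and COL4A6 on chromosome X. The RefSeq start sites used here (GRCh38.p14), the nearest of each pair, are 127, 419 and 380 bases apart. COL4A6 has another RefSeq start site farther from COL4A5 (chrX:108438422). Each pair shares that stretch, but the ratios within pairs were 2.09 and 1.21, 0.442 and 0.480, and 0.422 and 0.271. The stretch between the COL4A1 and COL4A2 start sites (chr13:110307158-110307283, plus strand, 126 bases, 80.2% G or C) is shown whole. Of the stretch between COL4A5 and COL4A6, only the 250 bases before the COL4A5 start site are shown (chrX:108439588-108439837, plus strand, 51.2% G or C). They were chosen from the pairs with most UMIs, whose ratios differed. Both lie before the RefSeq start sites, and the first lies inside the GENCODE span of COL4A2, which begins farther upstream. Capitals mark the motifs CCAAT and GGGCGG on either strand.
COL4A1 to COL4A2: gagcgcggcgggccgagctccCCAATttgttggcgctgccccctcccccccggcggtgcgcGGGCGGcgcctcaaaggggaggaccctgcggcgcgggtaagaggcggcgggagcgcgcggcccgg
COL4A5: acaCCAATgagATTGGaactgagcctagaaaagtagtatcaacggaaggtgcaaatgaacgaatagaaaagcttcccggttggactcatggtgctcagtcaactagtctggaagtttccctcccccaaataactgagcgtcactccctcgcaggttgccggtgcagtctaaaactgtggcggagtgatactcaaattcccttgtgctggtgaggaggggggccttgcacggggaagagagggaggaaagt

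The COL4A1 to COL4A2 stretch holds CCAAT 1 time and GGGCGG 1 time, and the COL4A5 stretch holds CCAAT 2 times, once on each strand, and no GGGCGG. The part toward COL4A6 that is not shown holds a further CCAAT, and the COL4A6 window there (chrX:108439409-108439708) holds CCAAT 3 times. RefSeq promoter windows (250 bases before to 50 after a start site) were given for 32 of the 44 chains, as 44 windows. CCAAT was in 31.8% of these and in 34.6% of all 34943 windows, GGGCGG in 54.5% and 44.9%, TATAAA in 18.2% and 11.6%, CATTCC in 6.82% and 14.0%, and TGANTCA in 2.27% and 7.72%, each on both strands. The CArG box was found in 0 of the 44 and in 1.30% of all. The chains without a window include COL8A1, COL1A1, COL1A2 and COL3A1, so the shares leave these higher chains out. Some chains, such as COL10A1 and COL11A2, had several windows and count more than 1 time. Matches of different motifs may overlap, and a match is a string of letters, not a bound site. In GENCODE v44 the COL4A2 span (chr13:110305812-110513209, plus strand) overlaps the COL4A1 span (chr13:110148963-110307157, minus strand). COL4A2 also overlaps the antisense genes COL4A2-AS1 and COL4A2-AS2. In all, 16 of the 44 chains overlap a listed gene on the opposite strand. Among them are the higher chains COL1A1, COL1A2, COL5A1, COL5A3 and COL18A1 and the lower chains COL4A3, COL9A1, COL10A1, COL15A1 and COL19A1. The counting strand was not given in the sources used here. Reads of such pairs may be uncertain.

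Partner chains were also compared cell by cell, in 10 pairs. In cells thinned to 5000 UMIs, marker-high cells with a COL4A1 UMI had 265 CPM of COL4A2, and those without had 146 CPM (1.82, 1.65 to 2.02). In other cells the values were 197 and 177 CPM (1.12, 1.07 to 1.16). COL4A6 was at 94.4 CPM in marker-high cells with a COL4A5 UMI and 55.1 CPM in those without (1.71, 1.44 to 2.04), and at 244 and 191 CPM in other cells (1.27, 1.23 to 1.32). COL1A2 was at 121 CPM in marker-high cells with a COL1A1 UMI and 53.3 CPM in those without (2.27, 1.87 to 2.73). COL5A2 was not higher in marker-high cells with a COL5A1 UMI, at 110 against 125 CPM (0.877, 0.746 to 1.03). COL6A2 did not differ beyond counting error with a COL6A1 UMI (1.30, 0.452 to 3.10, and 0.948, 0.597 to 1.45, in other cells), nor did COL9A2 with a COL9A1 UMI (1.16, 0.130 to 4.87, and 0.952, 0.753 to 1.195), COL9A3 with a COL9A1 UMI (1.84, 0.795 to 3.80, and 1.06, 0.802 to 1.38) or COL11A2 with a COL11A1 UMI (0.105, 0.00134 to 8.23, and 1.24, 0.479 to 3.33). For COL4A3 with COL4A4 and COL8A1 with COL8A2, no cell with the first chain had a UMI of the second. Thinned marker-high cells held 1 UMI of COL4A4 and 1 of COL8A2 in all, and other cells 33 and 8. These are too few to tell whether the partners occur together. These are differences between cells of 1 library, and differences along the marker score enter them.

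Among the remaining 24 chains, the transmembrane collagens had the highest summed ratio, 548 CPM against 81.1 CPM (6.75). COL25A1 encodes a membrane collagen known from neurons and from amyloid plaques. It was at 539 CPM (534 to 544) in marker-high cells and 76.7 CPM (75.6 to 77.8) in other cells, a ratio of 7.03 (6.91 to 7.15). UMIs of COL25A1 were in 93.1% of marker-high cells and 43.7% of other cells, and in 72.2% and 20.8% after thinning. COL25A1 spans 494028 bases, so intronic reads could add to its count. Of the other membrane collagens, COL23A1 was at 4.58 CPM against 2.76 CPM (1.66, 1.45 to 1.89) and COL17A1, with 140 UMIs, at 0.691 CPM against 0.366 CPM (1.89, 1.32 to 2.69), which was 1.15 in thinned cells. With the first division of the cells kept, thinned COL17A1 was at 0.506 CPM in marker-high and 0.568 CPM in other cells. The intervals of its shares of thinned cells with a UMI overlapped (0.0690 to 0.647% and 0.191 to 0.386%). Thinning thus left too few UMIs to give its direction. COL13A1, found at cell adhesion sites and the neuromuscular junction, was at 3.36 CPM against 1.28 CPM (2.63, 2.22 to 3.12), and this ratio was 1.37 in cells thinned to 5000 UMIs.

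COL18A1 and COL15A1 encode the multiplexins, proteoglycan collagens of basement membranes, and they differed in opposite directions. COL18A1, the source of endostatin, was at 86.6 CPM (84.5 to 88.7) against 29.5 CPM (28.9 to 30.2), a ratio of 2.93 (2.83 to 3.03). COL15A1 was at 0.587 CPM against 3.54 CPM, a ratio of 0.166 (0.120 to 0.224). The fibril-associated collagens (FACITs) likewise split. COL12A1, which coats type I fibrils, was at 26.0 CPM (24.8 to 27.1) against 1.18 CPM (1.05 to 1.33), a ratio of 22.0 (19.4 to 25.01) that was 14.4 with the cut at 10 and 34.7 without the cells between 2.5 and 10. COL9A1 and COL9A2, type IX chains that coat type II fibrils, were at 16.6 CPM against 64.5 CPM (0.257, 0.242 to 0.272) and at 1.81 CPM against 6.54 CPM (0.277, 0.231 to 0.330). The remaining type IX chain, COL9A3, was at 5.79 CPM against 4.94 CPM (1.17, 1.05 to 1.31), and its ratio was 1.80 in thinned cells. With the first division of the cells kept, thinned COL9A3 was at 7.21 CPM against 4.61 CPM. COL19A1 was at 0.313 CPM against 0.651 CPM (0.480, 0.299 to 0.741), and past the 0.5-fold limit neither in thinned cells (0.567) nor relative to the median gene (0.623).

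The other FACIT chains lay within the 2-fold limits. COL22A1 was at 11.4 CPM against 7.48 CPM (1.52), COL14A1 at 1.12 against 1.16 CPM (0.966, but 1.58 in thinned cells), and COL21A1 at 0.678 against 0.378 CPM (1.79, 1.25 to 2.55). Type VI collagen, which forms beaded filaments around cells, was not among the higher chains. COL6A1 was at 22.0 CPM against 27.4 CPM (0.804, 0.762 to 0.848) and COL6A2 at 4.64 CPM against 3.52 CPM (1.32, 1.16 to 1.495). COL6A6 was at 0.287 CPM against 1.13 CPM (0.254, 0.156 to 0.392) and the related COL28A1 at 0.352 CPM against 2.48 CPM (0.142, 0.0927 to 0.209), the lowest ratio of the 39 chains. In thinned cells the ratio of COL28A1 was 0.0541, and COL6A6 had 0 UMIs in marker-high cells. With the first division of the cells kept, thinned COL28A1 was at 0.1265 CPM against 2.34 CPM. Only 0.0633% of the thinned marker-high cells had a UMI of COL28A1. COL7A1, the anchoring fibril chain, was at 1.90 CPM against 2.91 CPM (0.653), and COL26A1 at 79.0 CPM against 66.1 CPM (1.195).

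Levels were then read along the marker score, in 8 bands from 0 to 40 or more UMIs per 10000, to see whether the cut at 5 separated the chains. COL11A1 and COL5A2 differed mostly below the cut. COL11A1 was at 158 CPM at a score of 0, 418 CPM at 1 to 2.5, 672 CPM at 2.5 to 5 and between 842 and 945 CPM in each band above. COL5A2 was at 58.5 CPM at 0, 124 CPM at 2.5 to 5 and 103 CPM at 40 or more. COL1A1 and COL5A1 differed mostly from the cut upward, and COL8A1 on both sides of it. COL8A1 was at 1.38 CPM at 0, 30.1 CPM at 2.5 to 5, 128 CPM at 5 to 10 and 425 CPM at 20 to 40. COL1A1 was at 2.89 CPM at 0, 8.34 CPM at 2.5 to 5 and 124 CPM at 40 or more. COL5A1 was at 11.4, 13.9 and 85.1 CPM in those bands.

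The type IV chains followed the score in different ways. COL4A6 was at 229 CPM at a score of 0, 155 CPM at 2.5 to 5 and 34.1 CPM at 40 or more, and COL4A5 at 242, 152 and 73.8 CPM. COL4A1 and COL4A2 were lowest in the middle. COL4A1 was at 95.1 CPM at 0, 80.4 CPM (75.1 to 86.0) at 2.5 to 5 and 260 CPM at 40 or more, and COL4A2 at 193, 142 and 275 CPM. COL26A1 was highest in the middle, at 53.6 CPM at 0, 117 CPM at 2.5 to 5 and 65.4 CPM at 40 or more. Cells with a score of 0 are also shallower, with a median of 15756 UMIs, and a shallow cell can reach 0 by chance of sampling.

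**Figure D3:**
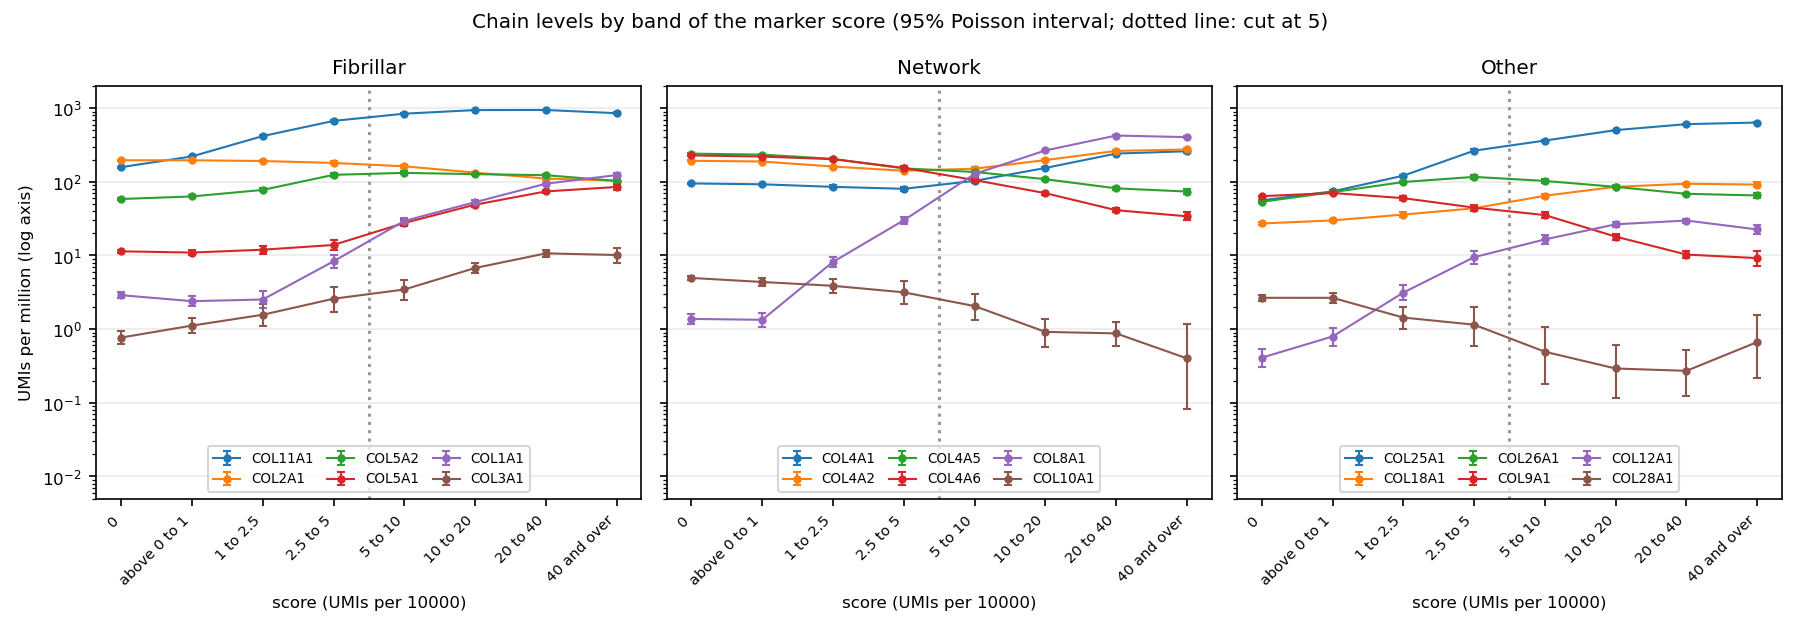
Level (CPM, log axis) of 18 chains in 8 bands of the marker score (UMIs of ANXA1, TFPI2 and CTGF per 10000), with 95% Poisson intervals and a dotted line at the cut of 5. COL11A1 is already at 672 CPM in the band below the cut, COL8A1 climbs across it from 30.1 to 128 CPM, and COL4A6 goes from 229 CPM at 0 to 34.1 CPM at 40 or more.

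The marker-high cells were divided further by WLS. WLS encodes the protein that carries WNT ligands out of the cell. The 211 marker-high cells with 1 or more WLS UMIs per 10000 (median depth 54760 UMIs) were compared with the 964 that had none (40931 UMIs, depth taken as the median), and the 409 cells between were left out. Of 27 chains with 100 or more UMIs in these cells, 8 were at least 2-fold higher in the WLS cells, against 4.85% of 13349 genes, and 5 were at or under 0.5-fold, against 3.13%. COL3A1 and COL13A1 reached 100 UMIs only through the WLS cells, and COL9A1 and COL9A3 only through the cells without WLS, so the counts are a description and no support for a difference. COL3A1 was at 42.1 CPM (38.5 to 46.0) in WLS cells and 0.729 CPM (0.492 to 1.04) in cells without WLS, a ratio of 57.8 (39.96 to 86.6). It was found in 87 of 211 WLS cells (41.2%) and in 23 of 964 cells without WLS (2.39%). COL13A1 was at 15.6 CPM (13.4 to 18.1) against 0.146 CPM (0.0535 to 0.317), a ratio of 107 (48.3 to 296) that rests on 6 UMIs in the cells without WLS.

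The WLS cells held 77.4% of the COL3A1 UMIs and 70.5% of the COL13A1 UMIs of all marker-high cells. In marker-high cells without WLS, COL13A1 was below its level in the other cells (1.28 CPM, 1.14 to 1.43), while the interval of COL3A1 overlapped that in the other cells (1.03 CPM, 0.901 to 1.16). The 409 cells between had 4.72 CPM of COL3A1 (3.89 to 5.68) and 2.93 CPM of COL13A1 (2.28 to 3.70), both above the other cells, so the higher levels were not confined to the 211 WLS cells. COL8A1 (644 against 196 CPM, 3.28), COL1A2 (145 against 48.1 CPM, 3.01), COL1A1 (126 against 43.3 CPM, 2.92), COL22A1 (18.8 against 6.66 CPM, 2.82), COL6A2 (8.41 against 3.26 CPM, 2.58) and COL4A1 (292 against 141 CPM, 2.07) were also higher in WLS cells. COL9A3 (1.20 against 8.41 CPM, 0.143), COL9A1 (4.72 against 23.5 CPM, 0.201), COL26A1 (34.7 against 106 CPM, 0.326), COL4A6 (30.0 against 75.4 CPM, 0.399) and COL2A1 (73.5 against 152 CPM, 0.485) were lower. COL11A1 and COL25A1 were not higher but somewhat lower in WLS cells, at 746 against 1029 CPM (0.725) and 451 against 582 CPM (0.774).

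Among the other cells, 115 had 5 or more UMIs per 10000 of STMN2, ELAVL4 and SGCZ, genes active in neurons. COL24A1, a fibrillar chain, was at 30.9 CPM (23.1 to 40.4) in them and 1.36 CPM (1.21 to 1.52) in the remaining 12226 cells, a ratio of 22.7 (16.7 to 30.5). It was the only 1 of 34 chains that was at least 2-fold higher there, against 11.0% of 18039 genes. Its 53 UMIs came from 22 of the 115 cells (19.1%, 12.4 to 27.5%), with at most 12 in a cell, and it was found in 2.03% of the remaining cells. The median depths were 13089 and 16953 UMIs. In the other direction 21 of the 34 chains were at or under 0.5-fold, against 17.7% of all genes, and for 13 of them the interval lay below 1. The 115 cells gave 1715187 UMIs and the remaining cells 236226497. Of these lower chains, only COL11A1, COL4A2 and COL4A5 reached the UMI minimum within the 115 cells (135, 120 and 194 UMIs). The others reached it only through the remaining cells, so the count is a description and no support for a difference. COL11A1 was at 78.7 against 225 CPM (0.350), COL2A1 at 57.7 against 196 CPM (0.294), COL25A1 at 16.3 against 77.1 CPM (0.212), and COL4A5 at 113 against 233 CPM (0.486). COL1A1 and COL12A1 had 0 UMIs in the 115 cells, which allows up to 1.75 CPM. The remaining cells had 2.98 CPM of COL1A1 and 1.19 CPM of COL12A1, so for COL12A1 a lower level was not detectable at this depth.

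Cells were also divided by genes of mitosis. The 4784 other cells with 10 or more UMIs per 10000 of TOP2A, CENPF and MKI67 were compared with the 7557 below that. The count was 0 of 34 chains in either direction, against 1.58% and 1.14% of all genes, so the count was near the share for all genes and is no result about collagens. The outermost ratios were 0.526 for COL13A1 and 1.52 for COL14A1. Within marker-high cells (458 against 1126), it was 0 of 28 chains, against 0.771% and 0.686% of genes.

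**Figure D4:**
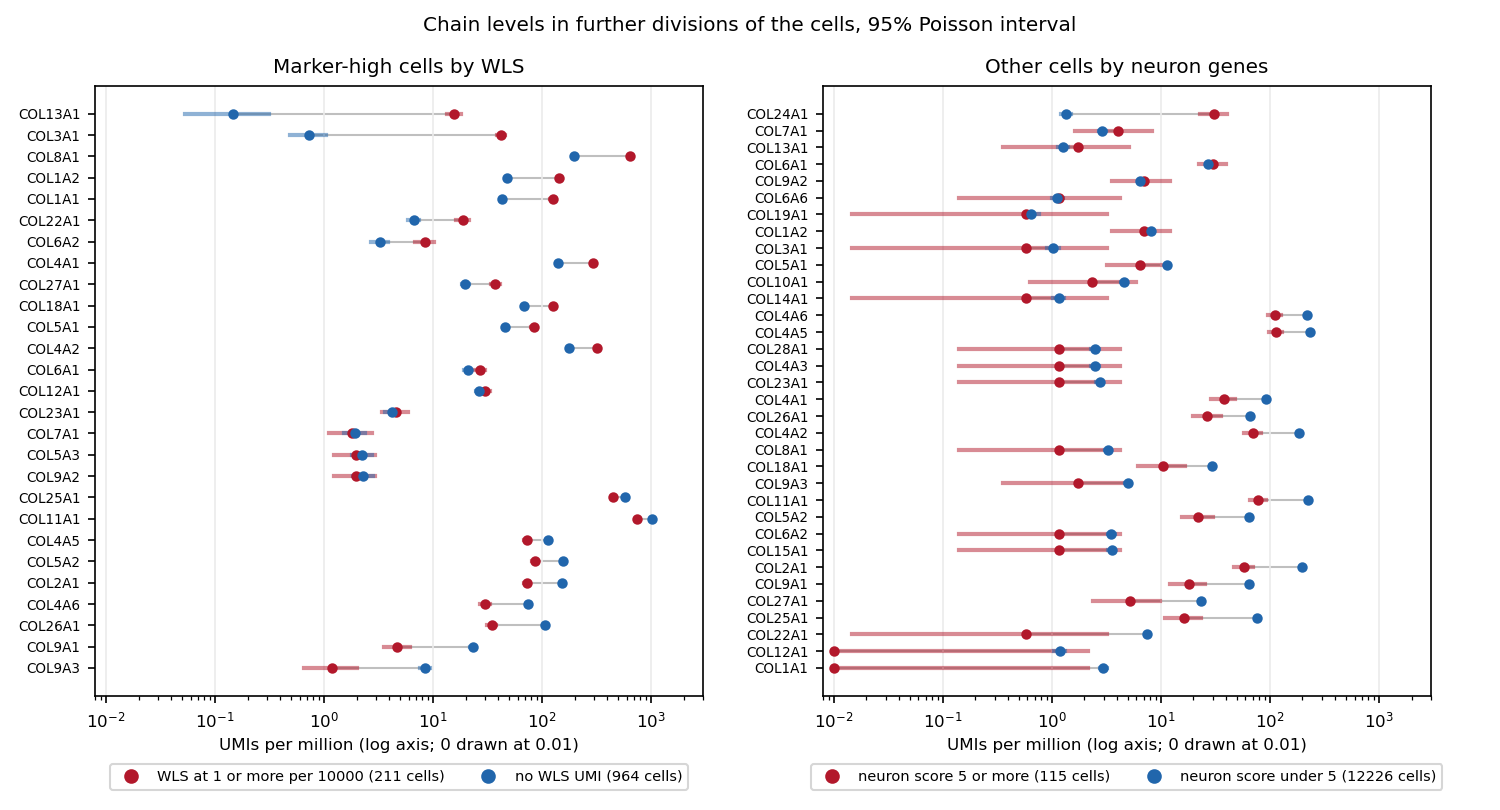
Chain levels (CPM, log axis, 0 drawn at 0.01) in marker-high cells with and without WLS (left, 211 and 964 cells) and in other cells above and below the cut for STMN2, ELAVL4 and SGCZ (right, 115 and 12226 cells), with 95% Poisson intervals. COL13A1 and COL3A1 stand apart on the left and COL24A1 alone on the right, where most other chains lie lower in the 115 cells.

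The genes that make, bind and break down collagen were taken from 8 lists of 82 genes in all. Of the 76 with 100 or more UMIs, 27 were at least 2-fold higher in marker-high cells and 5 were at or under 0.5-fold, against the same 7.45% and 24.0% of all genes. The enzymes and chaperones of the endoplasmic reticulum were mostly close in both groups: 3 of 18 were higher and 0 lower, with a median ratio of 1.37. These were P3H2, a prolyl 3-hydroxylase, at 154 CPM against 16.9 CPM (9.08), PLOD3, a lysyl hydroxylase, at 29.9 against 13.6 CPM (2.19), and PPIB, a prolyl isomerase, at 410 against 188 CPM (2.19). SERPINH1, the collagen chaperone, was at 202 against 139 CPM (1.45). The lowest were P3H4 (0.650) and FKBP10 (0.719). Of 6 export and transcription genes, only CREB3L1, a membrane-bound transcription factor of secretory cells, was higher, at 33.1 CPM against 0.967 CPM, a ratio of 34.2 (29.9 to 39.3). CREB3L2 was next at 53.2 against 28.7 CPM (1.85), and MIA3, which loads collagen into transport carriers, was at 45.2 against 72.0 CPM (0.627), with TMEM38B close at 0.633.

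Propeptide removal was the list with most lower genes, 3 of 7, beside 1 higher. TLL1, a protease of the BMP1 family, was at 49.4 CPM against 3.95 CPM (12.5, 11.6 to 13.4), and BMP1 itself at 14.4 against 9.34 CPM (1.55). PCOLCE (1.68 against 3.66 CPM, 0.460), PCOLCE2 (8.12 against 17.3 CPM, 0.470) and TLL2 (5.96 against 12.5 CPM, 0.476) were lower. Of the 5 lysyl oxidases, which cross-link the fibrils, LOX (12.7 against 1.31 CPM, 9.72), LOXL2 (88.4 against 21.2 CPM, 4.17) and LOXL4 (2.64, on 137 UMIs) were higher, LOXL1 was at 1.42 and LOXL3 was lowest at 0.725. Of the 7 matrix partners with 100 UMIs 6 were higher, POSTN having reached that minimum only through marker-high cells, and FMOD, with 2 and 31 UMIs, was left out by it. POSTN, a matricellular protein, was at 2.20 CPM against 0.0504 CPM (43.7, 24.4 to 86.2, on 12 UMIs in other cells), BGN, a small proteoglycan, at 8.29 against 0.929 CPM (8.93), and THBS1, TGFBI, LUM and SPARC were between 2.64 and 6.69. FN1, fibronectin, was the lowest at 1.48.

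Basement membrane partners were more even, with 2 of 14 higher and 1 lower and a median ratio of 1.21. LAMB1, a laminin chain, was at 154 CPM against 22.2 CPM (6.92). LAMA1, the laminin chain of early embryonic basement membrane, was at 35.7 against 99.3 CPM (0.360), and LAMA3 was next lowest at 0.586. The list for collagen receptors had 7 of 10 higher and 1 lower. ADGRG6, an adhesion receptor that binds type IV collagen, was at 37.8 CPM against 0.597 CPM (63.2, 53.4 to 75.4), and ITGA1, an integrin chain for type IV collagen, at 31.7 against 3.80 CPM (8.33). ITGB1, the common integrin beta chain, was at 776 against 258 CPM (3.00). ADGRG1, the receptor of type III collagen in the developing cortex, went the other way at 4.42 against 20.6 CPM (0.214, 0.191 to 0.239), and DDR1 was next lowest at 1.44. Of 9 breakdown genes and inhibitors 4 were higher and 0 lower: the proteases MMP14 (4.61 against 0.731 CPM, 6.31) and MMP2 (107 against 26.2 CPM, 4.06) and the inhibitors TIMP3 (78.5 against 13.0 CPM, 6.04) and TIMP1 (125 against 36.8 CPM, 3.40). MMP16 (0.708) and MMP15 (0.813) were lowest.

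**Figure D5:**
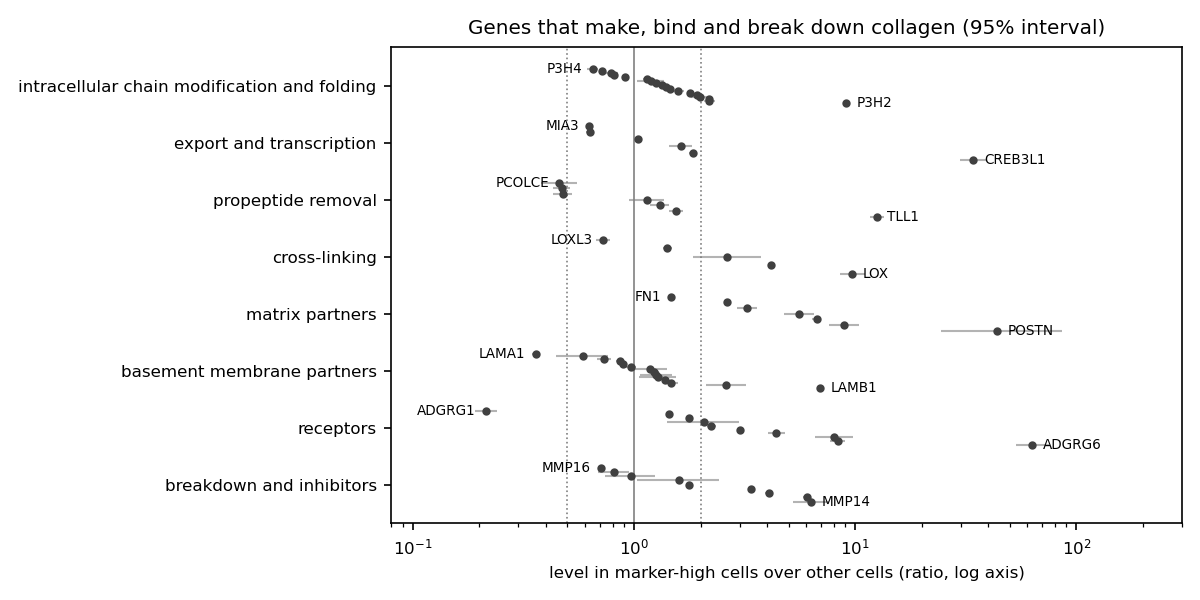
Ratio of the level in marker-high cells over other cells (log axis) for the 76 pathway genes with 100 or more UMIs, 1 row per list, with 95% intervals and dotted lines at 0.5 and 2; the lowest and highest gene of each list is named. ADGRG6 is farthest to the right at 63.2 and ADGRG1, in the same row, farthest to the left at 0.214.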

How the data were processed

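Single-cell RNA-seq (10x 3′ HT v3.1 chemistry) of 1 library, hHAR123, was analysed. Libraries of other genotypes were not analysed here, and with 1 library no comparison has a replicate. The deposited values are UMI counts per gene and cell barcode, made by the authors, per the submitters' processing notes, with Cell Ranger 7.0.1 and Seurat 4.4.0 on GRCh38. The annotation release and the counting strand are not given in the sources used here. All barcodes share 1 suffix, so loading wells cannot be told apart.

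Barcodes with 2000 to 10000 genes and a mitochondrial share under 0.1 were kept (13925 of 14726; 3167 to 118188 UMIs each). Counts were pooled per cell group and divided by the group's total (CPM). Intervals are exact 95% Poisson, conditional binomial or Clopper-Pearson intervals and cover counting error only, and the floor is 3 counts. Genes under 100 UMIs were not compared. Thinning drew 5000 UMIs per cell without replacement and left out 28 shallower cells (3 marker-high). Ratios given for thinned cells used a score taken again from the thinned counts, which left 1580 marker-high cells. Shares of thinned cells with a UMI and the partner comparisons kept the first division. Scrublet (scanpy 1.11.5) marked 1 barcode at its own threshold and so did not work as a caller. No doublets were removed, except that an alternative left out the 8% highest scores. Python 3.11.15, numpy 2.4.6, scipy 1.17.1 and pandas 2.3.3 were used. The ratio and thinning code was tested on simulated data. Gene spans came from GENCODE v44 and promoter windows from RefSeq (GRCh38.p14).

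Each chain with 100 or more UMIs is named with its levels, and chains under that with their UMI total. Of each pathway list the 2 highest and 2 lowest ratios are named, with any gene needed to give the direction. A result that this rule would name is not reported here. The chains, lists, score and cut-offs were chosen with earlier results of these data known. Alternatives were other score cuts, no cells near the cut, thinning, all barcodes, UMIs per cell, mean per-cell CPM, centring on the median gene, removal of high doublet scores and other UMI minimums.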

Additional observations from a re-analysis of the deposited data

Results flagged for a closer look

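Collagen RNA was also present in the 801 barcodes that the filters removed, which enter only the alternative with all barcodes. Barcodes with under 2000 genes (520, of which 82 were marker-high) had 2067 CPM of summed collagen (1979 to 2157), where a count of 0 would have allowed up to 2.96 CPM. Barcodes with over 10000 genes (94, of which 80 were marker-high) had 2956 CPM (2922 to 2990). Barcodes with a mitochondrial share of 10% or more (430, of which 73 were marker-high) had 3153 CPM (3086 to 3220). COL8A1 was at 42.4, 366 and 159 CPM in these 3 sets, and COL4A6 at 204, 78.9 and 219 CPM. The sets overlap.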

How the results depend on the processing

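No paired analysis was possible because there is 1 library. The cause of the shifts below was not tested, except that UMIs per cell multiply each ratio by the mean depth ratio and centring divides each by the median gene's ratio. The summed collagen ratio of 1.98 became 1.95 with the cut at 3, 2.08 without cells near the cut, 1.89 with thinning, 4.96 in UMIs per cell, 1.90 as mean per-cell CPM (1.895), 2.56 when centred and 2.00 without the highest Scrublet scores (2.001). The fibrillar ratio of 2.64 became, with the cut at 3 and 10, 2.69 (2.685) and 2.52, then 2.82 without cells near the cut, 2.59 with all barcodes, 6.64 in UMIs per cell, 2.68 as mean per-cell CPM, 3.43 when centred and 2.69 (2.687) without high Scrublet scores. The network ratio of 1.22 became 1.17 and 1.30 with those cuts, 1.28 without cells near the cut, 1.08 with thinning (1.076), 1.24 with all barcodes, 3.07 in UMIs per cell, 1.07 as mean per-cell CPM and 1.58 when centred. The ratio of the other chains, 2.65, became 2.60 with the cut at 10, 2.84 without cells near the cut, 2.68 with thinning, 2.62 with all barcodes, 6.65 in UMIs per cell, 2.68 as mean per-cell CPM, 3.43 when centred and 2.70 (2.7) without high Scrublet scores.

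Shares of all genes past the cut-offs were not computed for the alternatives. Chains at least 2-fold higher numbered 12, 26 in UMIs per cell and 10 to 16 otherwise. Chains at or under 0.5-fold numbered 11, 2 in UMIs per cell, 7 when centred and 8 to 11 otherwise. The 23 chains past 2-fold kept their direction in every alternative except UMIs per cell, where 19 did and COL4A4 (1.21, 1.205), COL4A3 (1.11), COL19A1 (1.21) and COL4A5 (1.06) reversed. On that scale 14 were still past 2-fold, and COL9A1 (0.645), COL9A2 (0.696), COL10A1 (0.562), COL4A6 (0.681) and COL6A6 (0.637) kept their direction but not the call. Apart from that scale, the 2-fold call was lost by COL4A1 with the cut at 3 (1.98), thinning (1.82) and mean per-cell CPM (1.795), by COL13A1 with thinning, by COL19A1 with thinning (0.567) and centring (0.623), by COL4A4 with all barcodes (0.509) and centring (0.622), and by COL4A3 (0.573) and COL4A5 (0.548) with centring. With thinning 20 were still past 2-fold, and 9 of the 39 ratios moved by over 1.5 times, namely COL24A1 (0.605), COL14A1 (1.58), COL5A3 (18.7), COL9A3 (1.80), COL17A1 (1.15), COL13A1 (1.37), COL4A4 (0.236), COL28A1 (0.0541) and COL6A6 (0). COL8A1 (38.9 and 177) and COL12A1 (14.4 and 34.7) moved by over 1.5 times with the cut at 10 and without cells near it. Depth limits chains of few UMIs: COL6A6 had 0 UMIs in thinned marker-high cells. For COL24A1, COL14A1 and COL17A1 the shares of thinned cells with a UMI had overlapping intervals between the cell groups. Their shifts with thinning therefore give no direction.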
